A study of Homo sapiens with 2 samples.

Results

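The genes that carry proteins into the endoplasmic reticulum (ER), fold them there and pass them on were compared between a pair of myeloma cell cultures. A list of 58 such genes was split by role into 6 classes: translocon and signal peptidase, chaperones, disulphide enzymes, N-glycosylation, ER-associated degradation (ERAD) with stress sensors, and COPII transport with cargo receptors. Members were the probe sets that the array's annotation assigns to exactly 1 symbol, where that symbol is on the list. This gave 135 of 54675 probe sets, for 54 of the 58 genes and of 19775 genes on the array. The single probe sets annotated to PDIA5 and to TXNDC5 each carry a second symbol, and these genes were not analysed here; nor were SEC61G and KDELR2.

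The samples were total RNA of MM.1S, an established human multiple myeloma line of malignant plasma cells. In one group the cells had been grown together with plasmacytoid dendritic cells (pDCs), the immune cells known for secreting type I interferon, and in the other MM.1S cells had been grown by themselves. Each group was 1 Affymetrix HG-U133 Plus 2.0 array, so values have no replicate error, no difference below could be tested, and "higher" and "lower" describe this pair of arrays. The series asks how pDCs bear on growth and drug resistance of myeloma cells; the sources used here give neither the time in culture, nor the source of the pDCs, nor any step to remove them before RNA extraction.

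Plasma cells secrete antibody in very large amounts and are known for an expanded ER. A new secretory protein enters the ER through the SEC61 channel, loses its signal peptide, receives N-linked sugars, is folded by chaperones and disulphide isomerases, and leaves in COPII vesicles, while proteins that fail to fold are sent back to the cytosol for degradation. When folding capacity is short, the sensors IRE1 (ERN1), ATF6 and PERK (EIF2AK3) start the unfolded protein response, in which ATF6 and XBP1 act on ER stress elements in the promoters of chaperone genes.

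Signals are MAS5 intensities on a linear scale, with both arrays set to the same trimmed mean of 500.1. The median signal of each array, 115.9 with pDCs and 124.0 without, served as a floor for low signals. A gene was represented by its brightest probe set, and its log2 ratio is the co-culture value minus the value alone. For the 54 genes this probe set was above the floor on both arrays, so each has a measured ratio and none a bound. Of the 135 probe sets, 125 passed both floors, 3 passed in co-culture only and 7 on neither array. The expression of a gene per cell and the share of cells that express it cannot be told apart in RNA from a whole culture.

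Most ER chaperones (11 of 14) and most ERAD and sensor genes (7 of 8) had a lower signal in co-culture on their brightest probe sets, with median log2 ratios of -0.51 and -0.30, though the central chaperones HSPA5 and HSP90B1 did not. Further ERAD and stress genes off the list, given below, had a median of 0.03, with 8 of 18 negative. The 6 listed genes of the sugar-transferring enzyme were split, 3 against 3, and medians of the other classes of the list were between -0.12 and 0.15. Over the 54 ER genes the median log2 ratio was -0.14 (-0.08 after quantile normalization and -0.06 after loess), with 36 negative and 18 positive ratios. Of the ER genes 66.7% were thus negative, against 52.3% of the 11522 genes that passed the floor on both arrays, whose median was -0.03. FKBP11 was the only ER gene at least 2-fold lower (none with the mean over probe sets, where FKBP11 had -0.99), where 3.4% of all genes were, and 0 ER genes were at least 2-fold higher, where 2.69% of all genes were. At a size of 1.5-fold, 9 ER genes (16.7%) were lower, against 13.0% of all genes, and 3 (5.56%) were higher, against 10.7%. The share at least 1.5-fold lower was thus near that of all genes. A further 5 genes, SSR3, MANF, DERL1, DERL3 and ATF6, were within 0.05 (log2) of that size on the lower side, and none on the higher side. The share of all genes that close to the size was not counted. Other probe sets of SSR3, DERL1 and ATF6 reached 0.21, 0.50 and 0.47.

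**Figure D1:**
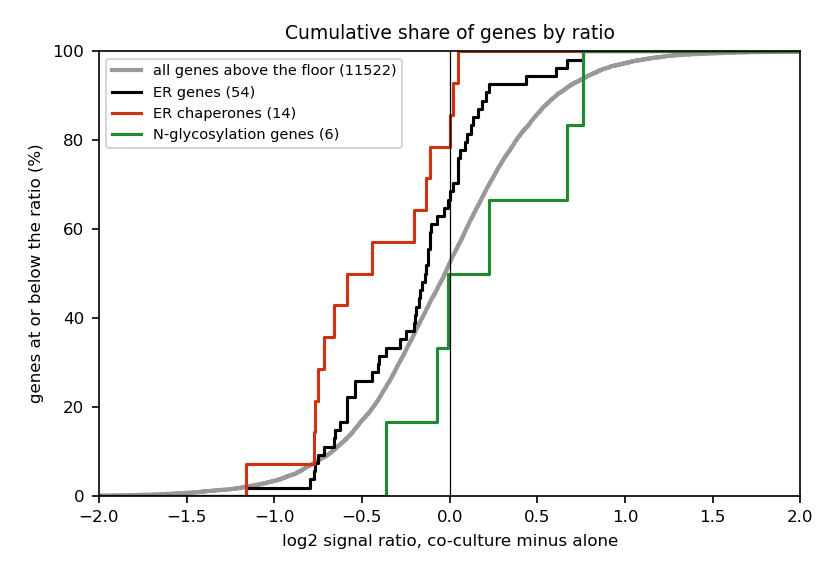
Cumulative share of genes (%, y axis) at or below each log2 signal ratio of co-culture minus alone (x axis), for 11522 genes above the floor on both arrays, the 54 ER genes, the 14 chaperones and the 6 N-glycosylation genes. The chaperone curve lies left of the others over most of its range and ends at 0.05, while 3 of the 6 N-glycosylation genes are above 0.

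Among the 14 chaperones, 11 had a negative ratio and the median was -0.51. Of these, 6 (42.9%) were at least 1.5-fold lower, against the 13.0% of all genes given above, and 0 were 1.5-fold higher. FKBP11, a membrane-bound prolyl isomerase abundant in secretory cells, had a signal of 15633 in co-culture and 34961 alone (2.24-fold lower). Its next probe set, at 7177 against 15624, was 2.18-fold lower, and the dimmest, at 876 against 1420, had a log2 ratio of -0.70. FKBP11 was thus lower on each of its 3 probe sets. FKBP2, another prolyl isomerase of the ER lumen, had 1184 against 1992 (1.68-fold lower).

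The main chaperone and some of its helpers differed. HSPA5, which encodes BiP, the HSP70 of the ER, had 31638 in co-culture and 31168 alone, a log2 ratio of 0.02. Its other probe set, with 1052 against 2124, was 2.02-fold lower, so the probe sets of HSPA5 do not give 1 answer. HSP90B1, the HSP90 of the ER (GRP94), had 10541 against 10193, a log2 ratio of 0.05, and 0.59 on its other probe set. Some partners of BiP were on the lower side, while others were near 0 or had probe sets of both signs. HYOU1 (GRP170), which helps BiP exchange its nucleotide, had 3868 against 6596 (1.71-fold lower). SDF2L1, which works with the BiP cochaperone ERdj3, had 1707 against 2802 (1.64-fold lower), and DNAJB11, which is ERdj3 itself, had 9414 against 12795, a log2 ratio of -0.44. MANF, a secreted stress protein that binds BiP, had 10277 against 15393, a log2 ratio of -0.58. CRELD2, a stress-induced ER protein with disulphide isomerase activity, had 3681 against 5817 (1.58-fold lower). DNAJB9 (ERdj4) had a ratio of -0.20, with 0.45 and -0.59 on its dimmer probe sets, and DNAJC3 (p58IPK), another cochaperone, had 0.00 and a range from -0.20 to 0.54.

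The lectin chaperones, which hold newly glycosylated proteins, went apart. CALR, the soluble calreticulin, had 4060 against 6950 (1.71-fold lower), with log2 ratios of -0.30 and -0.00 on its other probe sets, the last at a signal of 132 on both arrays. CANX, the membrane-bound calnexin, had 17974 against 19454, a ratio of -0.11, while its 3 other measured probe sets were at 0.37 to 0.51. PPIB (cyclophilin B), a prolyl isomerase, had -0.13 and -0.07. The 6 chaperones with a single probe set, HYOU1, DNAJB11, SDF2L1, MANF, CRELD2 and FKBP2, were each negative, from -0.77 to -0.44, and no second probe set of theirs was at hand as a check. When x_at and s_at probe sets, types that may cross-hybridise, were left out, HYOU1, SDF2L1 and HSP90B1 dropped out, CALR was left with a ratio of -0.00, and the chaperone median was -0.13, with 7 of 11 genes negative.

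**Figure D2:**
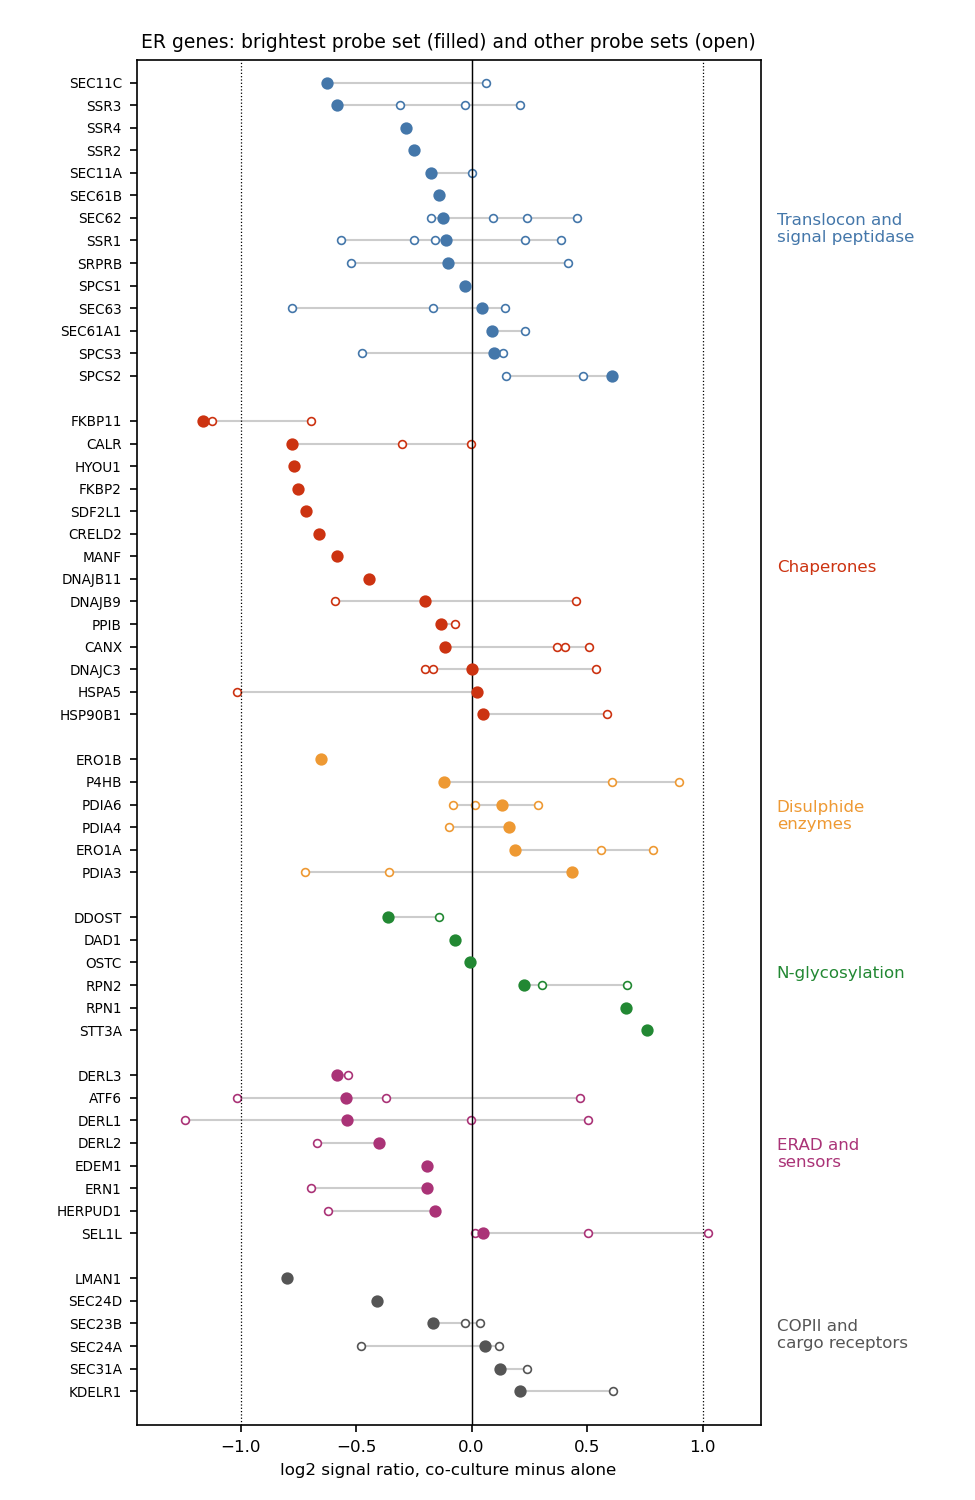
Log2 signal ratio of co-culture minus alone (x axis) for each of 54 ER genes (y axis, by class), with the brightest probe set filled and the other probe sets that passed both floors open. Dotted lines mark 2-fold; FKBP11 is past it on 2 probe sets, and the open points of ATF6, DERL1, SEL1L and PDIA3 lie far from the filled ones.

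The promoters of several chaperone genes hold the ER stress element, shown here because it is the known site of the unfolded protein response. RefSeq promoter windows (GRCh38.p14, 250 bases before to 50 after the start of the gene) were at hand for 51 of the 58 listed genes. The element ERSE was searched as CCAAT, 9 bases of any kind and CCACG, and the shorter ERSE-II as ATTGG, 1 base of any kind and CCACG, both by exact letters and on both strands. ERSE was found for 7 of the 51 ER genes (13.7%) and for 25 of 27305 genes with a window (0.0916%). ERSE-II was found for 3 of the 51 (5.88%) and for 19 of all genes (0.0696%). The element is known from promoters of chaperone genes such as those listed. These shares therefore describe the list and are no result of the arrays. These 10 genes are 7 chaperones, the disulphide enzymes PDIA6 and ERO1B, and HERPUD1. Each stretch below is read on the gene's own strand and lies before the start; capitals mark the fixed letters of the element, and those beginning with CGTGG carry it on the opposite strand. The first 8 lines are ERSE and the last 4 are ERSE-II.
HSPA5: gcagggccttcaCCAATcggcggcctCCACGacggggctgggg
HSP90B1: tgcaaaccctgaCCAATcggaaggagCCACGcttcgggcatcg
HSP90B1: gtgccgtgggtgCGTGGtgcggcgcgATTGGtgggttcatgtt
CALR: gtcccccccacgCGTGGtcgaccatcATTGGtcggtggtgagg
CANX: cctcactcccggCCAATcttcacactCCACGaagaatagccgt
CRELD2: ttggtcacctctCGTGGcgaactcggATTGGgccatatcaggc
PDIA6: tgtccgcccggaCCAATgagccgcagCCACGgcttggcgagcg
ERO1B: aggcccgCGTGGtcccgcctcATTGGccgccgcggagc
HYOU1: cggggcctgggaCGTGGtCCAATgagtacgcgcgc
HYOU1: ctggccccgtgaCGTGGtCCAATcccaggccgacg
SDF2L1: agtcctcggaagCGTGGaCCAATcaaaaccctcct
HERPUD1: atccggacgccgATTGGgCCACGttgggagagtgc

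The HSPA5 stretch is at chr9:125241379-125241421 on the minus strand, and its element begins 66 bases before the start. Those of HSP90B1 are at chr12:103930204-103930246 and chr12:103930309-103930351, that of CALR at chr19:12938372-12938414, that of CANX at chr5:179698766-179698808 and that of CRELD2 at chr22:49918542-49918584, each on the plus strand. PDIA6 is at chr2:10812841-10812883 and ERO1B at chr1:236282171-236282208, both on the minus strand. The HYOU1 stretches are at chr11:119057262-119057296 and chr11:119057368-119057402 on the minus strand, and SDF2L1 at chr22:21642102-21642136 and HERPUD1 at chr16:56932013-56932047 are on the plus strand. A match of letters is a description and does not show that a factor binds there.

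Genes that share the element did not share a ratio. The 7 genes with ERSE ran from CALR at -0.78 through CRELD2 at -0.66, ERO1B at -0.65 and CANX at -0.11 to HSPA5 at 0.02, HSP90B1 at 0.05 and PDIA6 at 0.13. The 3 genes with ERSE-II were HYOU1 at -0.77, SDF2L1 at -0.71 and HERPUD1 at -0.16. The median of the 10 was -0.41 with 7 negative, and that of the 38 measured ER genes with a window and neither element was -0.13 with 25 negative. Of the 10, CALR, HYOU1, SDF2L1, HSP90B1, CANX and HERPUD1 were read by x_at or s_at probe sets. Without these types HYOU1, SDF2L1 and HSP90B1 dropped out, and CALR had -0.00, CANX 0.37 and HERPUD1 -0.62. The medians by element were not taken again without them. Outside the list, 25 measured genes had either element, with a median of -0.27 and 17 negative, where 53.3% of all genes with a ratio were negative. The XBP1 element, searched as TGACGTGG on both strands, was found for 6 of the 51 ER genes (11.8%) and 0.927% of all genes. Of its 5 measured carriers, SSR3 had -0.58, SSR4 -0.28, SEC62 -0.12 and SEC24A 0.06, and HYOU1 is given above; in HYOU1 this element overlaps an ERSE-II. The 132 measured carriers outside the list had a median of -0.002, with 66 negative.

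**Figure D3:**
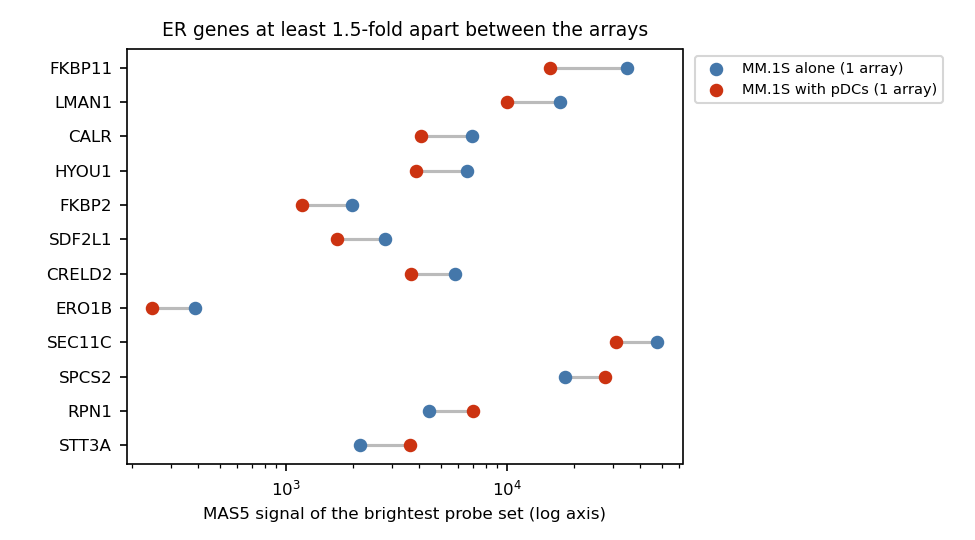
MAS5 signal of the brightest probe set with pDCs (red) and without (blue), 1 array each (x axis, log scale), for the 12 ER genes at least 1.5-fold apart (y axis). The 9 genes from FKBP11 to SEC11C have the lower signal in co-culture, and SPCS2, RPN1 and STT3A the higher one; the arrays have no replicates, so there are no error bars.

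Disulphide enzymes, which form and shuffle the bonds between cysteines, had a median log2 ratio of 0.15 over 6 genes, 4 of them positive (0.016 without x_at and s_at probe sets). PDIA3 (ERp57), which works with calnexin and calreticulin, had 10644 against 7882, a ratio of 0.43, but -0.72 and -0.36 on its other probe sets. P4HB, the classical protein disulphide isomerase, had 32186 against 35002, a ratio of -0.12, but 0.61 and 0.90 on its other probe sets. For both enzymes the direction thus depends on the probe set. PDIA6 had 16521 against 15076 (0.13), with -0.08 to 0.29 over its 4 probe sets, and PDIA4 had 0.16 and -0.10. The oxidases that pass electrons from the isomerases to oxygen were on opposite sides. ERO1A, also known as a hypoxia-induced gene, had ratios of 0.19, 0.78 and 0.56, positive on each of its 3 probe sets. ERO1B had 247 against 389 (1.57-fold lower), and its other probe set was below the floor on both arrays.

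The oligosaccharyltransferase moves a sugar tree onto asparagine as the protein enters the ER. Its 6 listed genes had a median log2 ratio of 0.11 (0.33 without x_at and s_at probe sets), with 3 positive and 3 negative. STT3A, the catalytic subunit that works at the translocon, had 3641 against 2152 (1.69-fold higher), and RPN1 (ribophorin I) had 7031 against 4419 (1.59-fold higher). At this size, 10.7% of all genes were higher. RPN2 (ribophorin II) had 21411 against 18292, a ratio of 0.23, with 0.30 and 0.67 on its other probe sets. STT3A and RPN1 were each read by 1 probe set. Other listed subunits of the same complex were not higher. DDOST had 13886 against 17856, a ratio of -0.36, and -0.14 on its other probe set; DAD1 had -0.07 and OSTC -0.01.

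For the 14 translocon and signal peptidase genes the median log2 ratio was -0.12 (-0.25 without x_at and s_at probe sets), and 10 were negative. The channel itself differed little: SEC61A1, the pore subunit, had 7543 against 7086 (0.09) and SEC61B 21821 against 24034 (-0.14). SEC62 and SEC63, which help proteins enter after translation, had -0.12 and 0.05, with ranges from -0.17 to 0.45 and from -0.78 to 0.15 over their measured probe sets. Each of the 4 subunits of the translocon-associated TRAP complex was negative on its brightest probe set. SSR3 had 15135 against 22667 (-0.58), SSR4 had -0.28, SSR2 -0.25 and SSR1 -0.11. Other probe sets of SSR3 reached 0.21 and those of SSR1 0.39, while SSR2 and SSR4 have 1 each. SRPRB, which anchors the receptor for the signal recognition particle, had -0.10, with -0.52 and 0.42 on its other probe sets.

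Signal peptidase, which cuts off the signal peptide, was split between subunits. SEC11C, one of its alternative catalytic subunits, had 30973 against 47729 (1.54-fold lower), but 0.06 on its other probe set, and SEC11A, the other catalytic subunit, had -0.18. SPCS2, an accessory subunit, had 27826 against 18255 (1.52-fold higher), with 0.15 and 0.48 on its other probe sets, so it was positive on each of 3. The one at 0.48 was dim, at 181 against 129, near the floor. SPCS1 had 38062 against 38851, a ratio of -0.03 that turned to 0.08 after quantile normalization and to 0.07 after loess scaling. SPCS3 had 0.10, with -0.47 and 0.14 on its other probe sets.

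Of the 8 ERAD and sensor genes, 7 had a negative ratio and the median was -0.30, with 0 at the 1.5-fold size in either direction. The derlins, membrane proteins that take part in moving misfolded proteins back to the cytosol, were each negative on the brightest probe set. DERL3, the derlin found in secretory cells, had 2716 against 4068 (-0.58) and -0.53 on its other measured probe set. DERL2 had 4628 against 6115 (-0.40) and -0.67. DERL1 had 4999 against 7254 (-0.54), but its other probe sets were at -0.00, 0.50 and -1.24, the last at 189 against 446. DERL2 and DERL3 were thus lower on each measured probe set and DERL1 was not. HERPUD1, a stress-induced scaffold of the ERAD machinery, had 30972 against 34565 (-0.16), and -0.62 on its other probe set. SEL1L, which supports the HRD1 ubiquitin ligase, had 14865 against 14360 (0.05), with 0.02, 0.50 and 1.02 on the others. EDEM1, which marks misfolded glycoproteins for degradation, had -0.19.

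The stress sensors on the list did not give 1 direction over their probe sets. ATF6, which is cleaved to release a transcription factor, had 5098 against 7426 (-0.54), and 0.47, -0.37 and -1.02 on the others. ERN1 (IRE1), the kinase and nuclease that splices XBP1 mRNA, had 7487 against 8560 (-0.19) and -0.70. The ERN1 probe set that passed the floor in co-culture but not alone had 245 against 92.7, a log2 ratio of at least 0.99. These probe sets measure transcripts and not the activation of a sensor.

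The 6 COPII and cargo receptor genes were evenly divided, 3 negative and 3 positive, with a median log2 ratio of -0.06. LMAN1 (ERGIC-53), a lectin that carries glycoproteins out of the ER, had 10014 against 17399 (1.74-fold lower), and its other 2 probe sets were below the floor on both arrays. KDELR1, a receptor that returns escaped chaperones with a KDEL tail to the ER, had 9985 against 8641 (0.21) and 0.61 on its other probe set. Of the coat genes, SEC24D had 909 against 1206 (-0.41), with its other probe sets below the floor. SEC23B had -0.17, with 0.04 and -0.03 on its other probe sets, and SEC24A had 0.06, with -0.48 and 0.12. SEC31A had 0.12 and 0.24, positive on both of its probe sets.

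Other genes of the same pathway were taken from a list of 87, of which 85 were represented and 82 measured. Their median log2 ratio was -0.08, with 48 negative and 34 positive. At the 2-fold size 0 were lower and 0 higher, and at 1.5-fold 10 (12.2%) were lower and 3 (3.66%) higher, the former near the 13.0% of all genes. By step, the other chaperones had a median of -0.16 (7 of 10 negative, against 52.3% of all genes). The other disulphide enzymes had 0.24 (7 of 10 positive, against 47.7% of all genes). These are the same sides as the ER genes of these steps. Both lists were chosen with earlier results of these data known, so this is no independent check. The other glycosylation genes had -0.26, with 11 of 13 negative, while the listed subunits were 3 and 3. These 13 include more oligosaccharyltransferase subunits: STT3B at 0.18, MAGT1 at -0.15, OST4 at -0.26, KRTCAP2 at -0.42 and TMEM258 at -0.49. The other ERAD and stress genes had 0.03, with 8 of 18 negative and 10 positive, so they did not share the lower side of the listed ERAD genes. The other translocon genes had -0.20 and the other COPII genes -0.04.

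**Figure D4:**
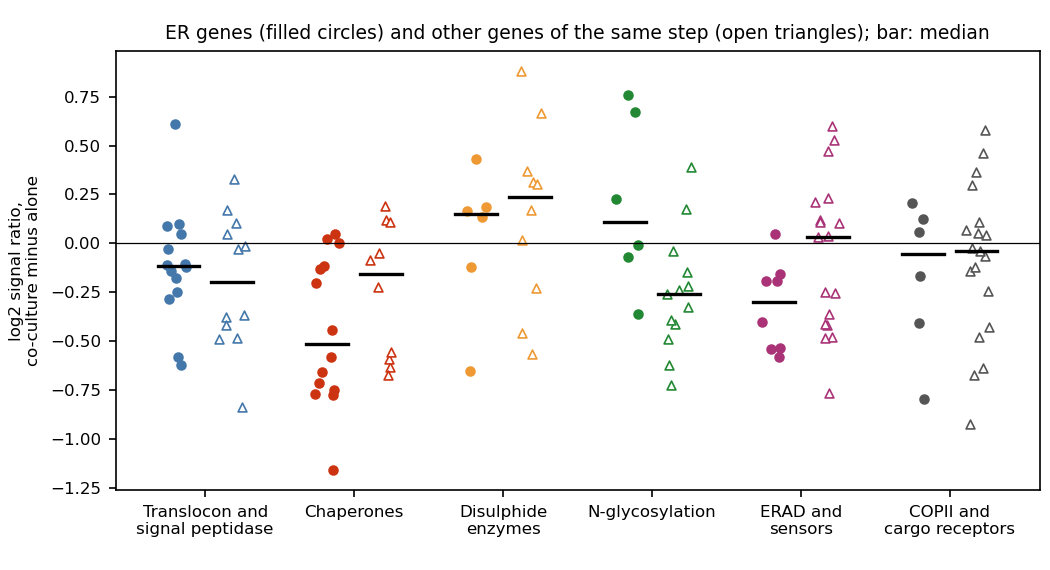
Log2 signal ratio of co-culture minus alone (y axis) for the 54 ER genes (filled circles) and the 82 other measured genes of the same 6 steps (open triangles); each point is a gene and bars are medians. Chaperone medians are below 0 and disulphide medians above 0 in both lists, while the listed glycosylation genes lie 3 on each side and 11 of the 13 others lie below 0.

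On their brightest probe sets, the regulators of the unfolded protein response were mixed. For these and the other pathway genes named below, further probe sets are not given here. The signals were not split into spliced and unspliced mRNA. XBP1, the transcription factor made from spliced mRNA, had 31891 against 44501 (-0.48). EIF2AK3 (PERK), the kinase that slows translation, had 3301 against 2177 (1.52-fold higher). ATF4, a transcription factor controlled mainly by translation, had 36054 against 35130 (0.04), and its target DDIT3 (CHOP) had 2575 against 4373 (-0.76). The next genes were named after their values were seen. The catalytic subunit STT3B had 0.18. Of the proteins that trim and check the sugar tree, GANAB had -0.72, UGGT1 -0.62, MOGS -0.39, PRKCSH -0.33 and UGGT2 -0.04. TMX1, SEC31B, SERP1 and MZB1 were named in the same way. TMX1, a membrane-bound disulphide isomerase, had 4654 against 2528 (1.84-fold higher), the highest ratio of the 82 other pathway genes. The lowest was that of SEC31B, at 121 against 229 (-0.93), and SERP1 had 13169 against 23574 (-0.84). MZB1, a GRP94 cofactor of B cells and plasma cells, had 21766 against 34740 (-0.67).

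The probe sets of a gene disagreed often, in ER genes as in other genes. Of 36 ER genes with 2 or more measured probe sets, 9 were negative on each, 8 were positive on each and 19 (52.8%) had both signs. Of 4844 such genes in all, 24.1% were negative on each, 24.9% were positive on each and 51.0% had both signs. The distance from the lowest to the highest ratio of a gene had a median of 0.60 (log2) in ER genes and 0.56 in all genes. Of the 54 ER genes, 42 had a ratio smaller in size than that 0.60. The brightest probe sets of the 36 genes had a median of -0.11 and their 71 other probe sets one of 0.01. Over the 125 measured probe sets of ER genes, 71 were negative and 54 positive with a median of -0.07, where 50.4% of such probe sets in all genes were negative. By class, 20 of 29 chaperone probe sets were negative with a median of -0.20, nearer to 0 than the -0.51 over genes. For ERAD genes 15 of 21 were negative (median -0.37), for translocon genes 21 of 38 (-0.03), for COPII genes 5 of 12 (0.05), for glycosylation genes 4 of 9 (0.23) and for disulphide enzymes 6 of 16 (0.15). At 2-fold, 5 of the 125 were lower and 1 was higher, against 3.43% and 3.72% of all.

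Measures of RNA and of cell type moved with the groups too. For the ACTB control, signal at the 3' end over signal at the 5' end was 8.09 in co-culture and 19.5 alone, and that of GAPDH was 2.46 and 3.07; the part of this difference in the ratios above was not tested. The 8 plasma cell markers passed the floor on both arrays, 4 with a negative and 4 with a positive ratio and a median of 0.01. Negative ratios were those of MZB1 and CD38, both -0.67, PRDM1 at -0.47 and SDC1 (CD138) at -0.05. IRF4 and SLAMF7 had 0.07, TNFRSF17 (BCMA) 0.46 and JCHAIN, which joins secreted antibody molecules, 0.83. Their summed signal was 154267 in co-culture and 139917 alone, and without JCHAIN it was 103505 and 111359, the other way. The summed signal of 13 pDC markers was 6640 against 9026, and 7 passed the floor in co-culture against 9 alone. CLEC4C, IL3RA and SPIB were below the floor on both arrays, LILRA4 had 306 against 256 (0.26), and TLR7 passed the floor in co-culture only, at 213 against 96.2. Of the 10 pDC markers with a ratio, LILRA4 and TLR7 were the 2 positive ones and 8 were negative. Among the negative ones, TLR9 (-1.16) and BCL11A (-1.22) passed the floor alone only. Without TCF4, GZMB and PACSIN1, which are also among these 8, the sum of the other 10 was still lower, 2497 against 3094. Of 7 monocyte markers 3 and 5 were above the floor, with sums of 480 and 1545, and of 4 T cell markers 0 and 0. ACTB and GAPDH transcripts themselves had ratios of 0.37 and 0.00.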

How the data were processed

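The deposited table holds 1 intensity signal per probe set and array, made by the authors; the submitters' processing notes name MAS5, and the sources used here give no version and no detection calls. In these values, the mean after trimming 2% at each end is equal on both arrays, a scaling that hides any difference common to most transcripts. Groups were taken from the sample titles. Symbols came from the platform annotation, checked by gene identifier against RefSeq (GRCh38.p14), and 0 needed an update; 41091 probe sets had 1 symbol. A gene was represented by its brightest probe set (mean log2 signal over the arrays); lower signals were set to the array median (50th percentile). Motifs were searched by exact letters. With 1 array per group no test was run; sizes of 2-fold and 1.5-fold were used, and precision is limited by the number of arrays. Any ER gene could be named, with signals for those past 1.5-fold and the 2 brightest of each class (signals of other ER genes were added after their values were seen); of the other pathway genes, the rule took those past 2-fold and XBP1, EIF2AK3, ATF4, DDIT3, ACTB and GAPDH. Members and lists were chosen with earlier results of these data known. Alternatives were 3 scalings, 3 floors, 2 ways to represent a gene and sizes of 1.5-fold and 3-fold. Scripts were tested on simulated data. Python 3.11.15, numpy 2.4.6, pandas 2.3.3, statsmodels 0.14.6 and matplotlib 3.10.9 were used.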

Additional observations from a re-analysis of the deposited data

How the results depend on the processing

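The ER median stayed negative, from -0.16 to -0.06, under 8 alternatives. These were median centring, quantile normalization, loess, no floor and a floor at the 30th or at the 70th percentile. The remaining ones were averaging each gene's probe sets and dropping x_at and s_at probe sets. The median of all genes with a ratio was negative under each as well, from -0.04 to -0.02. Under loess it was -0.02, against -0.06 for the ER genes. The other pathway genes kept their median within 0.1 (log2). The count of ER genes 2-fold lower was 0 with the mean over probe sets, 9 at 1.5-fold and 0 at 3-fold; that of higher genes was 3 at 1.5-fold. Medians of the 6 classes also moved by less than 0.1 except without x_at and s_at probe sets, which left 46 genes: they were then -0.25 for translocon, -0.13 for chaperone, 0.016 for disulphide, 0.33 for glycosylation and -0.40 for ERAD genes, with 8 genes dropped by construction. Single genes were followed through the alternatives only for 21, those past 1.5-fold or among the 2 brightest of their class. Of these 21, HSPA5, P4HB and SPCS1 turned sign under an alternative (HSPA5 to -0.50 and P4HB to 0.46 with the mean over probe sets). Of 163 values, 18 moved by 0.1 or more. With that mean, CALR (-0.36), SEC11C (-0.28) and SPCS2 (0.41) fell under the 1.5-fold size. SEC11C also did so under quantile normalization and loess, and ERO1B (-0.45) with the floor at the 70th percentile. The other genes past 1.5-fold stayed past it where they had a value, most with 1 measured probe set. ER genes outside these 21 were not followed in this way, and some of them, such as CANX and PDIA3, have probe sets of both signs. No paired analysis was possible because each group has 1 array.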
